A study of Mus musculus with 2254 samples.

Results

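Arterial endothelial cells line the arteries and arterioles, and 61 of the 2252 single brain wells kept here were counted as such. A well was taken as endothelial where Cldn5, a tight junction gene, and Pecam1, an adhesion gene of endothelium, together reached 200 CPM (counts scaled to a total of 1000000 in the well). It was taken as arterial endothelial where Gkn3, Bmx, Sema3g and Gja5 together also reached 100 CPM. The rule gave 242 endothelial wells, of which 61 were arterial and 181 were the other endothelial wells used for comparison. The arterial wells were thus selected on the measured levels of these 6 genes, and all other genes were read in the same wells. Every difference between arterial and other endothelial wells is therefore a description, with no test.

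The wells held brain cells of adult C57BL/6 mice, sorted by fluorescence into plates and sequenced with Smart-seq2, which copies full-length polyadenylated RNA well by well. Notch3 KO cells, labelled as a knockout of the receptor gene Notch3, filled plates 043, 467 and 471, and Notch3 WT cells filled plates 044, 468 and 469. Cells of both genotypes carried the SM22-Cre;Rosa26-stop-tdTomato reporter, in which the promoter of SM22 (Tagln), active in smooth muscle, drives Cre and so a red fluorescent protein. The labels name neither the animals nor the sort gates, so a genotype is treated as a single sample and differences carry no test. An SD over plates describes spread that may be technical. Values are given per plate, in the order 043, 467 and 471 for KO and 044, 468 and 469 for WT.

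Arterial endothelium receives blood at high pressure and pulsatile flow, rests on an elastic layer, and is wrapped by contractile smooth muscle. Its identity depends on Notch signalling, in which a ligand such as Jag1 or Dll4 on one cell opens a Notch receptor on its neighbour, and the freed receptor fragment works with Rbpj to switch on Hey and Hes genes. Capillary endothelium carries most of the transporters of the blood-brain barrier, which are less abundant in arteries.

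The 61 arterial wells had totals of 115232 to 698952 counts, with a median of 373421. They fell on all 6 plates, with 6, 8 and 17 on the KO plates and 11, 6 and 13 on the WT plates. No pair of endothelial wells held identical counts. The plates stood apart in 2 ways that touch every result below. Myh11, a contractile gene of smooth muscle, reached 500 CPM in 3, 7 and 13 arterial wells of the KO plates and in 5, 0 and 0 of the WT plates, which is 74.2% of the KO wells (95% exact binomial interval 55.4% to 88.1%) and 16.7% of the WT wells (5.64% to 34.7%). Other endothelial wells were few on 4 plates, with 10, 4 and 1 on the KO plates and 8 on WT plate 044, against 55 and 103 on WT plates 468 and 469. The intervals cover counting error only.

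The 28 arterial wells with Myh11 of 500 CPM or more could each hold an endothelial and a smooth muscle cell, and whether they did was not tested. Their median number of detected genes was 7039, against 5079 in the 33 arterial wells under 500 CPM, at similar median totals of 381959 and 373421 counts. The summed level of the 15 smooth muscle markers had a median of 9179 CPM in wells above the threshold and 779 CPM in wells below it. The summed level of Cldn5 and Pecam1 had a median of 2608 CPM in wells above the threshold and 3463 CPM in wells below it. Wells rich in Myh11 thus held more kinds of transcripts and somewhat less of the endothelial pair. Of the 28 wells, however, 23 were KO, and of the 33 wells 25 were WT. Arterial wells of any Myh11 level had a median of 7162 detected genes in KO and 4943 in WT. These differences cannot be told apart from those between plates and genotypes. Results are given with all arterial wells and without those 28, and the 15 other endothelial wells of that Myh11 level were then left out too. Smooth muscle wells, meaning the 1170 wells with Myh11 of 500 CPM or more outside the endothelial threshold, numbered 254, 213 and 278 on the KO plates and 333, 33 and 59 on the WT plates.

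Among the genes used for selection, Gkn3, which encodes a secreted gastrokine and is used as a marker of arterial endothelium in mouse brain (ENSMUSG00000030048.5, chr6:87383256-87388935, minus strand), had reads in 44 of 61 arterial wells, with a median of 452 CPM and a highest value of 4478 CPM. Bmx, a Tec-family tyrosine kinase (ENSMUSG00000031377.11, chrX:164192842-164258193, minus strand), had reads in 51 wells, with a median of 295 CPM. Sema3g, a secreted semaphorin (ENSMUSG00000021904.6, chr14:31217860-31230352, plus strand), was the most widely found, in 56 wells with a median of 174 CPM. Gja5, the gap junction protein connexin 40 (ENSMUSG00000057123.14, chr3:96904693-97077416, plus strand), was found in 19 wells with a median of 0. Its exons overlap those of Gpr89 on the opposite strand, and the strand setting of the counting is not given in the sources used here. In the 181 other endothelial wells, reads of Gkn3, Bmx, Sema3g and Gja5 were found in 5, 8, 9 and 12 wells, and 149 of them had no read of any of the 4. Most arterial wells held more than 1 of these genes. Exactly 1, 2, 3 or 4 of the 4 genes had reads in 8, 11, 28 and 14 arterial wells. Gkn3 was the highest of the 4 in 30 wells, Bmx in 18, Sema3g in 11 and Gja5 in 2. Without Gkn3, 56 wells would still have reached 100 CPM, without Bmx 55, without Sema3g 55 and without Gja5 all 61.

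On the plates, summed Gkn3 stood at 461, 1054 and 400.5 CPM in KO arterial wells and at 926, 186 and 518 CPM in WT arterial wells. Bmx stood at 319.9, 328 and 349.6 CPM in KO and 617, 438 and 337 CPM in WT, and Sema3g at 177, 115 and 197 CPM in KO and 193, 240.0 and 252 CPM in WT. The plates of the genotypes overlapped for Gkn3 and Bmx and for Sema3g they overlapped at 193 to 197 CPM. Gja5 stood at 36.3, 28.6 and 107 CPM in KO and 157, 171 and 67.5 CPM in WT, again with overlap. At the edge of the rule, the 3 arterial wells with the lowest sums of the 4 genes had 106, 111 and 121 CPM, and the 3 endothelial wells just outside had 99.8, 95.2 and 81.3 CPM. Between 100 and 200 CPM lay 9 arterial wells. Of the 2010 wells outside the endothelial threshold, 25 had an arterial sum of 100 CPM or more. The 3 highest Cldn5 and Pecam1 sums among these were 178, 148 and 89.8 CPM, and the 3 lowest among arterial wells were 351, 953 and 1360 CPM.

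**Figure D1:**
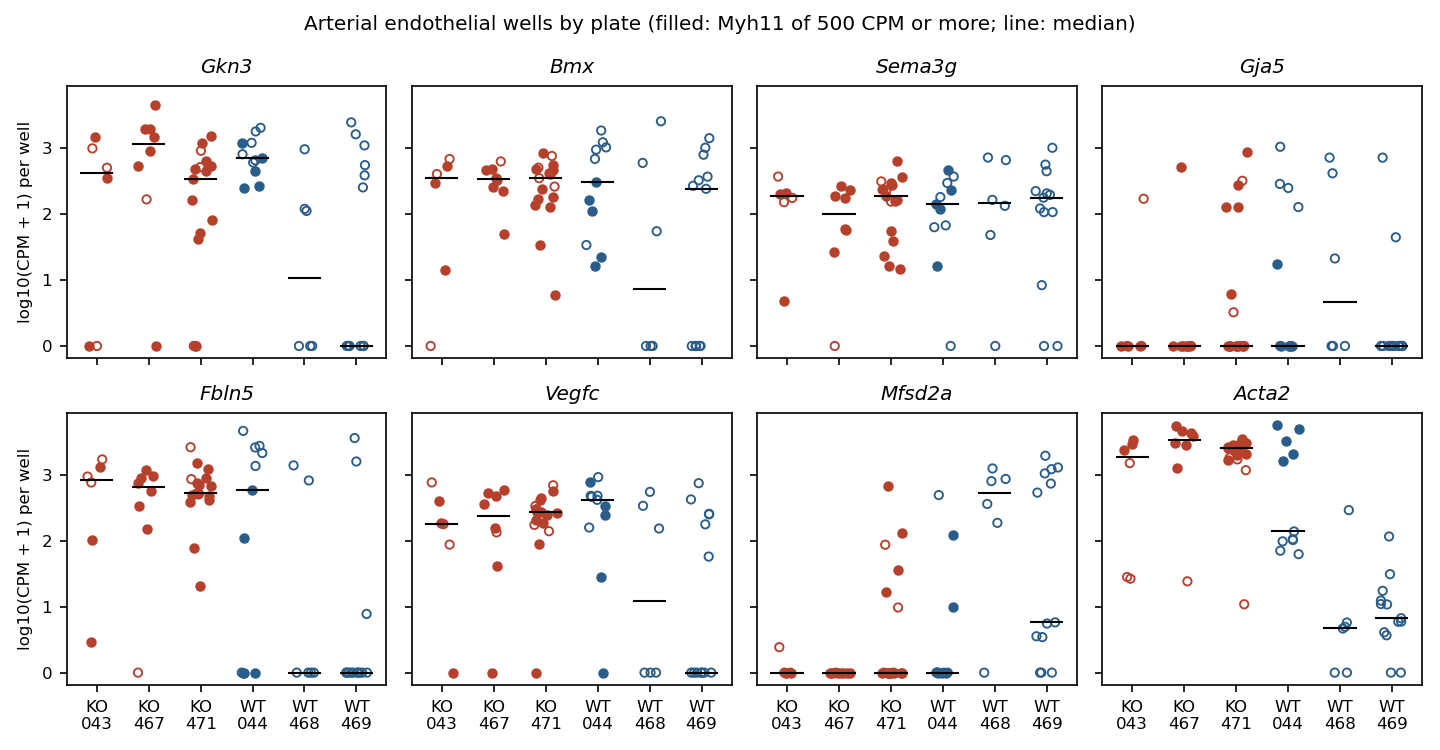
Levels per arterial well as log10(CPM + 1), by plate, with the KO plates on the left and the WT plates on the right. Filled points are wells with Myh11 of 500 CPM or more, open points are wells below it, and black lines are medians. Sema3g was present on all 6 plates, while Fbln5 had a median of 0 on WT plates 468 and 469, and Mfsd2a had its highest median, 579 CPM, on WT plate 468.

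The promoters of 3 selecting genes and of Fbln5, the gene outside the rule with the largest difference, are printed here because these genes are among those that set the arterial wells apart most widely. Each run holds 250 bases before and 50 after the annotated start, from RefSeq on GRCm38.p6, with motif matches in capitals.
Gkn3 (chr6:87388886-87389185, minus strand): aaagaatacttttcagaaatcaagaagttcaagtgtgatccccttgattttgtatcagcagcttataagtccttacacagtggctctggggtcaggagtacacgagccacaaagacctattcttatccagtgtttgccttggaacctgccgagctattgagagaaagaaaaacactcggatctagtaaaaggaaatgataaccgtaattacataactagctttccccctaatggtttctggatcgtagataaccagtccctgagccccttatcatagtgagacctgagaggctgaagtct
Bmx (chrX:164258144-164258443, minus strand): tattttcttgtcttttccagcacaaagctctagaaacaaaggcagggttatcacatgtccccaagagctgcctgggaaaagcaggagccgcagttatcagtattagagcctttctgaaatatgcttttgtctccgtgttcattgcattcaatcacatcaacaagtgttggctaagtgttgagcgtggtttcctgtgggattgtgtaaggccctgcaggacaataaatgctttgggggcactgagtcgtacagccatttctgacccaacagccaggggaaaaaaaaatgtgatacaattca
Sema3g (chr14:31217623-31217922, plus strand): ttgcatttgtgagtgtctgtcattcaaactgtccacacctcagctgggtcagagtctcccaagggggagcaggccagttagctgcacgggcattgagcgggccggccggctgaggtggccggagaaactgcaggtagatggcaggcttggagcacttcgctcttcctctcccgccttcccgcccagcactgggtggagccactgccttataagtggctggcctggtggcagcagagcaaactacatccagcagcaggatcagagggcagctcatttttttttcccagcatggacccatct
Fbln5 (chr12:101819070-101819369, minus strand, the first of 2 entries): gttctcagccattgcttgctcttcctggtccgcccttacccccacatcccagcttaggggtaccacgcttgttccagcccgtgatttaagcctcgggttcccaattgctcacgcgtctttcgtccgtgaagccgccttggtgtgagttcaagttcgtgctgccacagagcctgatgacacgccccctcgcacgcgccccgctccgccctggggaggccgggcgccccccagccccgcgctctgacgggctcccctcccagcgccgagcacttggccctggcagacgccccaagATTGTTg
The runs were searched on both strands for GTGGGAA, the core bound by Rbpj that reads TTCCCAC on the other strand. They were likewise searched for AACAAT, a core of SOX factors that reads ATTGTT on the other strand, and for CCGGAA, a core of ETS factors that reads TTCCGG there. The capitals in Fbln5 mark the only match, a SOX core from base 294 of the run. The Rbpj, SOX and ETS letters occur in 6.39%, 10.9% and 15.2% of all 27025 promoters of the table. Among the 260 genes higher in arterial than in other endothelial wells (at least 2-fold and on every plate) that have a promoter in the table the shares were 3.85%, 5.77% and 21.9%, and among the 5812 measured genes with one they were 5.68%, 5.49% and 30.9%. A match describes letters only, and its absence says nothing about binding.

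Arterial and other endothelial wells were compared on the 4 plates that held at least 5 of each, KO plate 043 and WT plates 044, 468 and 469, and values of both kinds are given in that plate order. Counts were summed per plate and kind, and differences are in log2(CPM + 1), averaged over the plates (SD over 4 plates). A gene was called higher or lower by size where it averaged at least 10 CPM, had a read in at least 25% of the wells of either kind, differed at least 2-fold, and had the same sign on every plate. Of 7837 measured genes, 356 were higher in arterial wells (4.54%) and 440 were lower (5.61%), and 16.9% had the same sign on every plate whatever their size. Over all measured genes the median was -0.07. Without the wells rich in Myh11, on the 3 plates with at least 3 wells of each kind (043, 468 and 469), 508 of 7397 measured genes were higher (6.87%) and 739 lower (9.99%). Of the 356 higher genes, 247 were called the same way there, and 301 of the 440 lower ones. Fewer plates have to share a sign there, which by itself raises the counts. Numbers of called members in the lists below are to be read beside these shares of all measured genes.

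The largest differences outside the selecting genes were in an elastic fibre gene and a growth factor. Fbln5, fibulin 5 of elastic fibres (ENSMUSG00000021186.9, chr12:101746565-101819055, minus strand), stood at 758, 1363, 325 and 379 CPM in arterial wells, against 1.11, 16.4, 0.0685 and 0.112 CPM in other endothelial wells, a difference of 7.86 (SD 1.05) and of 8.66 without wells rich in Myh11. Vegfc, a growth factor for lymphatic and blood vessels, stood at 229.7, 419, 155 and 146 CPM, against 0.370, 0, 0 and 4.89 CPM, a difference of 7.01 (SD 1.71). All 4 arterial values lay above all 4 values of other endothelial wells for both genes. Each well was also thinned to 50000 counts, and the shares of wells that follow are over all 6 plates. Fbln5 was then found in 65.6% of arterial wells (exact 95% interval 52.3% to 77.3%) and 1.66% of other endothelial wells (0.343% to 4.77%). The unthinned shares were 68.9% and 5.52%. By plate, unthinned Fbln5 had reads in 6 of 6, 7 of 11, 2 of 6 and 3 of 13 arterial wells of the 4 compared plates. On KO plates 467 and 471 it had reads in 7 of 8 and 17 of 17. Vegfc was found in 77.0% of arterial and 0.552% of other endothelial wells after thinning, and in 77.0% and 1.10% before it. Differences of genes near 0 CPM in one kind depend on the pseudocount of 1 CPM, so their size is not a fold.

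**Figure D2:**
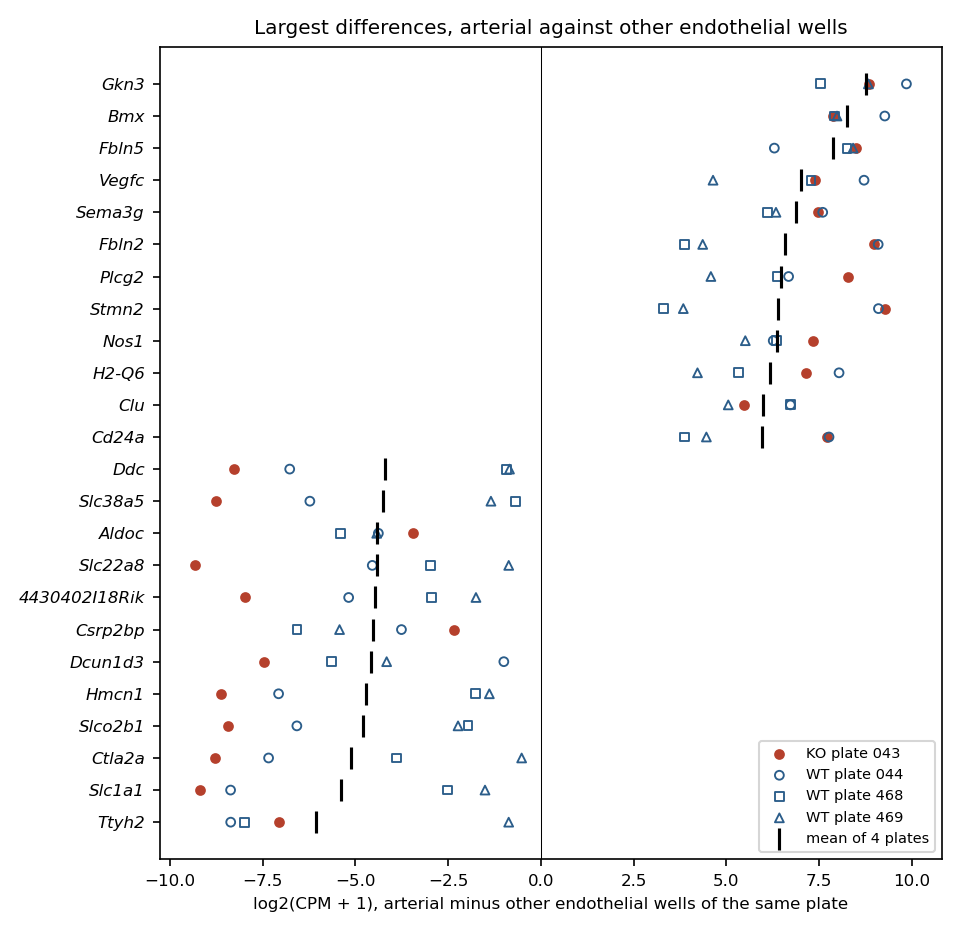
The 12 largest and 12 smallest differences in log2(CPM + 1), arterial minus other endothelial wells of the same plate, among genes called by size. Each symbol is 1 plate and the vertical mark is the mean of 4 plates. Gkn3, Bmx and Sema3g helped to choose the arterial wells, so their differences were set by the rule and are no finding. Gkn3 had the largest mean difference, 8.77. Ttyh2 had the smallest, -6.08, with WT plate 469 at -0.87 and the other 3 plates below -7.

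Genes of elastic fibres and large-vessel matrix stood together on the arterial side. Of 12 measured members of that list of 19, 7 were higher and none was lower, with a median of 1.81 beside -0.07 for all genes. Besides Fbln5 these were Eln, Fbln2, Fbn1, Htra1, Ltbp4 and Mgp, and the same 7 were called without wells rich in Myh11. Eln, elastin itself, stood at 163, 247, 94.8 and 439 CPM in arterial and 51.4, 28.9, 8.29 and 10.0 CPM in other endothelial wells, a difference of 3.35 (SD 1.51). Fbln2, another fibulin, stood at 505, 546, 293 and 382 CPM in arterial and 0, 0, 19.0 and 17.6 CPM in other endothelial wells (6.58, SD 2.85). Fbln2 was absent from other endothelial wells of plates 043 and 044 and present at a low level on 468 and 469. Ltbp4, which holds latent TGF-beta in the matrix, was abundant in both kinds, at 944, 1084, 1394 and 1950.1 CPM in arterial and 309.7, 140.4, 743 and 1044 CPM in other endothelial wells. Mgp, an inhibitor of calcification, stood at 778, 1283, 194 and 377 CPM in arterial and 353, 396, 34.2 and 53.6 CPM in other endothelial wells (2.02). Fbn1, fibrillin 1, stood at 87.8, 30.4, 116 and 2.23 CPM in arterial and 0, 5.85, 0 and 0.0839 CPM in other endothelial wells, so plate 469 was low. Eln, Mgp and Bgn were also found in smooth muscle wells, at 190.0, 632 and 1296 CPM, while Fbln5 and Fbln2 were at 8.92 and 0.585 CPM there. Antisense gene models overlap exons of Eln and Fbn1, and likewise of Itpr3, Pi16, Sox17 and Vcam1 described next.

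Signals that set vessel tone were also more abundant in arterial wells. Of 8 measured vasoactive genes 4 were higher and none lower (median 1.70), and these 4 held without wells rich in Myh11. Edn1, the precursor of the vasoconstrictor endothelin 1, stood at 285, 496, 219 and 222 CPM in arterial and 19.6, 0, 48.3 and 130.3 CPM in other endothelial wells (3.92, SD 3.58). Ace, the angiotensin-converting enzyme, stood at 86.7, 245, 14.8 and 97.5 CPM in arterial and 0, 0, 3.15 and 3.61 CPM in other endothelial wells (5.19). Ptgis, which makes prostacyclin, stood at 173, 180.1, 3.56 and 70.5 CPM in arterial and 1.85, 0, 0.206 and 0.587 CPM in other endothelial wells (5.21). For both of these, WT plate 468 had the lowest arterial value. Npr1, a receptor of natriuretic peptides, stood at 70.3, 90.4, 166 and 203 CPM in arterial and 31.8, 7.41, 22.6 and 33.6 CPM in other endothelial wells, with a smaller spread over plates than Edn1 (2.49, SD 0.98). All 4 have antisense gene models over their exons, so reads of the partners cannot be told apart. Ptgis was also abundant in smooth muscle wells, at 345 CPM. Nos3, the endothelial nitric oxide synthase, averaged 447 CPM in arterial and 282 CPM in other endothelial wells and did not meet the size rule (0.92). Nos1, the neuronal form, did, at 159, 136, 159 and 74.0 CPM in arterial and 0, 0.780, 0.960 and 0.643 CPM in other endothelial wells (6.36). It too has an antisense model, Gm26995.

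Of 9 measured endothelial ion channels 2 were higher and none lower, beside 4.54% higher and 5.61% lower of all measured genes. Trpv4, a calcium channel that opens with flow and stretch, stood at 84.7, 224, 328 and 202 CPM in arterial and 0, 0, 44.7 and 6.91 CPM in other endothelial wells (5.44, SD 2.15). After thinning it was found in 55.7% of arterial and 5.52% of other endothelial wells of all 6 plates. Itpr3, a receptor that releases stored calcium, stood at 110.4, 94.8, 184 and 387 CPM in arterial and 43.6, 35.1, 106 and 107 CPM in other endothelial wells (1.34). Plcg2, a phospholipase upstream of that release, was near 0 outside arterial wells, at 312, 141, 100.2 and 305 CPM in arterial and 0, 0.390, 0.206 and 11.8 CPM in other endothelial wells (6.49). Each of the 3 was called by size without wells rich in Myh11 as well. Of the 13 measured shear-stress genes, Trpv4 and Pi16 were higher and none was lower. Pi16, a peptidase inhibitor gene, stood at 622, 33.1, 395 and 0.203 CPM in arterial wells, thus high on plates 043 and 468 and near 0 on plate 469, and at most 0.370 CPM in other endothelial wells. It was not called without wells rich in Myh11.

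In the Notch pathway, 4 of 19 measured members were higher in arterial wells and none was lower, and the list's median was -0.18. The 4 were the ligands Jag1 and Jag2, the receptor Notch4 and the target Hey1, and the same 4 were called without wells rich in Myh11. Jag1 stood at 607, 445, 244 and 377 CPM in arterial and 93.1, 117, 92.9 and 91.3 CPM in other endothelial wells (2.01, SD 0.54). Jag2 stood at 158, 48.7, 196 and 221 CPM in arterial and 13.3, 21.4, 118 and 98.5 CPM in other endothelial wells (1.62). The difference in Jag1 was the steadier of the 2 over the plates. Notch4 stood at 146, 121, 369 and 369 CPM in arterial and 12.2, 0.390, 71.0 and 111 CPM in other endothelial wells (3.51). Hey1, a transcriptional repressor and textbook Notch target, stood at 197, 477, 172 and 137 CPM in arterial and 15.9, 38.6, 85.8 and 69.5 CPM in other endothelial wells (2.28). Over single wells, Jag1 had reads in 56 of 61 arterial wells with a median of 451 CPM, Notch4 in 52 with 169 CPM and Hey1 in 39 with 103 CPM. In other endothelial wells they had reads in 81, 83 and 41 of 181, each with a median of 0. Hey2, a related repressor that marks arteries in development, was not called (-0.48, SD 2.03) and Heyl was not called either (-2.25). Both were abundant in smooth muscle wells, at 241 and 701 CPM, as was Jag1 at 309 CPM.

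**Figure D3:**
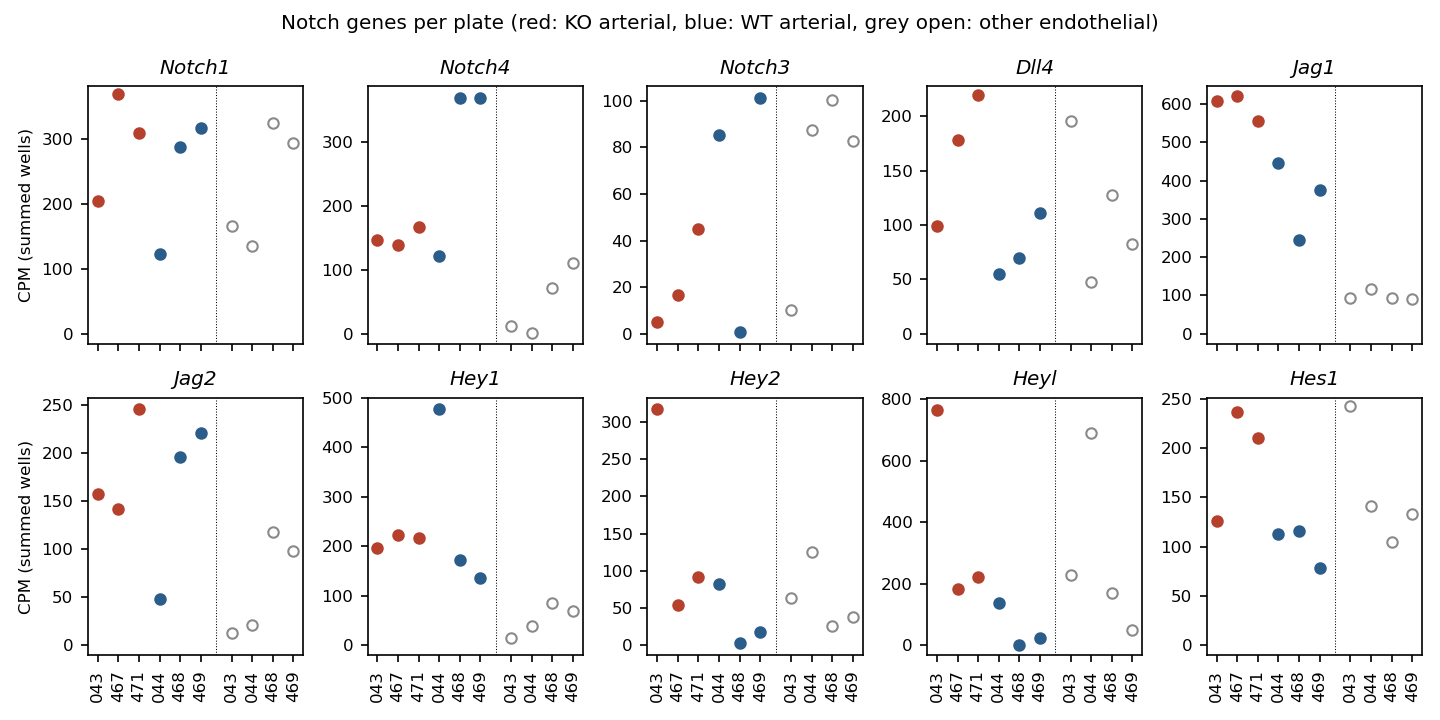
Summed CPM of 10 Notch pathway genes per plate, with KO arterial wells in red, WT arterial wells in blue and other endothelial wells of 4 plates as open grey points. Jag1 lay between 244 and 621 CPM on the 6 arterial plates and between 91.3 and 117 CPM in other endothelial wells, while Heyl had its highest arterial value, 765 CPM, on KO plate 043 and was at 0 on WT plate 468.

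Of 17 measured genes of BMP and TGF-beta signalling, 6 were higher in arterial wells and Tgfbr3 was lower. The higher ones were Acvrl1, Id2, Ltbp4, Smad6, Tgfb2 and Tmem100. Tmem100, a membrane protein downstream of the BMP receptor Alk1 in endothelium, stood at 291, 309, 427 and 52.8 CPM in arterial and 0.370, 30.4, 13.2 and 9.82 CPM in other endothelial wells (4.57, SD 2.37). Id2, an inhibitor of helix-loop-helix factors, stood at 220.1, 173, 84.2 and 110.3 CPM in arterial and 22.5, 0, 50.6 and 78.6 CPM in other endothelial wells (2.97). Smad6, which damps BMP signalling, was called (2.48) but stood at -0.14 without the wells highest in markers of other cell classes. Among 26 measured endothelial transcription factors, Sox17, Sox7, Gata2, Bcl6b and Hhex were higher and Lef1, a factor of Wnt signalling, was lower. Sox17, a factor of arterial specification, stood at 689.8, 560.4, 565 and 805 CPM in arterial and 201, 97.5, 334 and 380.3 CPM in other endothelial wells (1.53, SD 0.78). Gata2 stood at 379.9, 340.1, 244 and 332 CPM in arterial and 81.7, 21.1, 180.2 and 189 CPM in other endothelial wells (1.85). These factors were present in both kinds of wells, at a higher level in arterial ones. Hhex and Acvrl1 were not called without wells rich in Myh11.

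Several genes with large differences belong to none of these pathways. Stmn2, a microtubule regulator best known from neurons, stood at 622, 548, 602 and 398 CPM in arterial and 0, 0, 59.8 and 26.9 CPM in other endothelial wells (6.38, SD 3.25). The summed neuron markers stood at 75.4, 37.8, 81.2 and 78.0 CPM in arterial wells and 1.11, 3.12, 31.6 and 52.2 CPM in other endothelial wells, in the same direction, and their part in the Stmn2 values was not tested. Clu, the secreted chaperone clusterin, stood at 1850.4, 1716, 911 and 409 CPM in arterial and 40.7, 15.2, 7.54 and 11.4 CPM in other endothelial wells (6.00). WT plates 468 and 469 had the lowest arterial values. Cd24a, a surface glycoprotein, stood at 367, 387, 209.8 and 162 CPM in arterial and 0.739, 0.780, 13.4 and 6.38 CPM in other endothelial wells (5.96). H2-Q6, a class I gene of the MHC, stood at 248, 365, 52.7 and 29.7 CPM in arterial and 0.739, 0.390, 0.343 and 0.643 CPM in other endothelial wells (6.19). Reads of H2-Q6 and its near-identical relative H2-Q7 may be split by the counting, so neither level is certain. H2-Q7 and Igtp were higher among 20 measured interferon and antigen genes, Igtp not without wells rich in Myh11, and Ifitm1 was lower. Over all measured genes 4.54% were higher and 5.61% lower, so these few calls say little about that list. Vcam1, an adhesion molecule for leukocytes, stood at 937, 1139, 257 and 80.1 CPM in arterial and 1.48, 0.780, 32.4 and 28.0 CPM in other endothelial wells (5.58), and Vwf, the platelet-binding von Willebrand factor, stood at 297, 627, 533 and 943 CPM in arterial and 116, 67.8, 299 and 315 CPM in other endothelial wells (1.74). Both stand in the list of venous genes, of which 2 of 13 measured were higher and 3 lower. Fgfr3, on the astrocyte list, was higher (4.78), while Aldoc on the same list was lower (-4.42) and the list's summed level was 1164, 531, 310 and 479 CPM in arterial wells and 919, 1792, 1527 and 919 CPM in other endothelial wells. Of the 12 astrocyte markers, 7, 5, 1 and 0 were at 0 in those arterial wells. Gfap was at 0 there on plates 043, 044 and 468 and Aqp4 on plates 043 and 044, and Aqp4 was at 0 also in other endothelial wells of plates 043 and 044.

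Of the general endothelial genes, 5 of 24 were higher and 2 were lower, with a median of 0.51. Without wells rich in Myh11, 4 were higher and 3 lower (Emcn, Kdr and Robo4), with a median of 0.07. In other endothelial wells the list summed to 9892 CPM on plate 044, against 18536, 18976 and 20749 CPM on plates 043, 468 and 469. Mmrn2, an endothelial matrix protein, was steadily higher (1.52, SD 0.23), and Icam2, an adhesion molecule, was called with all wells (1.23) but not without those rich in Myh11. Emcn, a sialomucin (-1.08), and Robo4, a guidance receptor (-1.31), were lower. Cdh5, Tie1 and Tek, a junction protein and a pair of receptors common to all endothelium, averaged 336, 544 and 1225 CPM in arterial and 207, 397 and 913 CPM in other endothelial wells and did not meet the size rule. In the list of 33 arterial identity genes, which overlaps the genes above, 18 of 30 measured members were higher and Cxcl12 was lower, with a median of 1.63. Cxcl12, a chemokine listed as arterial, stood at 273, 404, 1062 and 1718 CPM in arterial and 2010.1, 1209, 2177 and 2074 CPM in other endothelial wells (-1.44). Where the list's name says arterial, this member went the other way, on all 4 plates as the calling rule requires.

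Capillary and blood-brain barrier genes were lower in arterial wells. Of 16 measured capillary genes 11 were lower and none was higher (median -2.20), and of 22 barrier transport genes 12 were lower and Slc6a6, a taurine carrier, was higher (median -1.14). Without wells rich in Myh11, 15 of 16 capillary and 15 of 22 barrier genes were lower and none was higher. Mfsd2a, which carries lysophospholipids with docosahexaenoic acid, stood at 0.343, 43.1, 565 and 551 CPM in arterial and 644, 486, 740.4 and 907 CPM in other endothelial wells (-3.37, SD 3.94). Slc16a1, the lactate and ketone carrier, stood at 0, 82.4, 242 and 258 CPM in arterial and 981, 655, 920.4 and 501 CPM in other endothelial wells (-3.95). Arterial wells of plates 043 and 044 held little of either gene, and those of plates 468 and 469 held several times more, though still less than other endothelial wells. Slc7a5, a carrier of large neutral amino acids, stood at 8.23, 10.3, 274 and 423 CPM in arterial and 809, 599, 839 and 1115 CPM in other endothelial wells (-3.80). Slc22a8, an organic anion carrier, stood at 0.686, 36.0, 182 and 630.1 CPM in arterial and 1081, 865, 1445 and 1151 CPM in other endothelial wells (-4.43). Slco2b1, another organic anion carrier, had a difference of -4.81, Slc1a1, a glutamate carrier with an antisense partner, 4430402I18Rik, had -5.39. Slc38a5, a carrier of neutral amino acids on the venous list, had -4.25. Hmcn1, a matrix protein (-4.72), Ddc, the enzyme that decarboxylates aromatic amino acids (-4.21), Ctla2a, a cathepsin inhibitor (-5.13), and Ttyh2, a membrane protein (-6.08), were also among the lowest. All of these were called without wells rich in Myh11 too, at -3.22 for Mfsd2a and -5.33 for Ttyh2. Ctla2a, Slco2b1 and Hmcn1 also overlap other gene models.

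Arterial wells were not alike on all plates. Fbln5 reached 100 CPM in 38 of the 61 wells and Mfsd2a in 15, both did in 2 and neither in 10, a split looked at after the values were seen. Fbln5 reached 100 CPM in 5 of 6, 7 of 8 and 15 of 17 KO wells and in 7 of 11, 2 of 6 and 2 of 13 WT wells. After thinning to 50000 counts, Fbln5 had reads in 93.5% of KO wells (78.6% to 99.2%) and 36.7% of WT wells (19.9% to 56.1%). The shares before thinning were 96.8% and 40.0%, with reads in 7 of 11, 2 of 6 and 3 of 13 wells of the WT plates. These intervals cover counting error only, and wells are not replicates of a genotype. Mfsd2a reached 100 CPM in 0, 0 and 2 KO wells and in 2, 5 and 6 WT wells. On WT plates 468 and 469 most wells chosen as arterial thus did not reach 100 CPM of Fbln5, and 5 of 6 and 6 of 13 reached it for Mfsd2a. Sema3g had reads in 5 of 6 and 11 of 13 wells there, and Gkn3 in 3 and 6. In other endothelial wells the capillary list summed to 15277, 8480.0, 15685 and 16403 CPM on plates 043, 044, 468 and 469, above the arterial wells of the same plate. The arterial identity list was more even, at 18508, 18073 and 19441 CPM in KO and 20754, 17468 and 17657 CPM in WT wells. The smooth muscle list stood at 5960.0, 8051 and 7453 CPM in KO and 5646, 644 and 687 CPM in WT arterial wells, and at 5409.8, 12957, 790.5 and 717 CPM in other endothelial wells. The pericyte list stood at 5959, 3338 and 4409 CPM in KO and 3718, 1499 and 1929 CPM in WT arterial wells, and at 7900.4, 7692, 5184 and 2900.1 CPM in other endothelial wells. Whether the plates differ by animal, vessel size, sort gate or wells with a pair of cells cannot be told apart with these labels.

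Genes were ranked by how their level per well followed Gkn3 across the 242 endothelial wells (Spearman correlation, 12138 genes found in at least 10% of the wells). These values describe wells that share plates and depth, and Gkn3 helped to choose the arterial ones. The 10 closest were Vegfc (0.72), RP24-245I16.3 (0.69), Bmx (0.69), Fbln5 (0.68), Eln (0.66), Ace (0.66), Sema3g (0.65), Plcg2 (0.63), Mgp (0.63) and Nos1 (0.61). Within the 61 arterial wells the order was another. Mgp was at 0.65, RP24-245I16.3 at 0.51 and Fbln5 at 0.45, while Bmx was at 0.27, Plcg2 at 0.02 and Sema3g at -0.04. Gkn3 and Sema3g thus followed each other across all endothelial wells and hardly at all within arterial ones, where each well had to hold at least 1 of 4 genes.

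The second comparison was of Notch3 KO with Notch3 WT arterial wells, 31 against 30 on 3 plates each. Notch3 itself is a receptor of mural cells and was checked first in the 1170 smooth muscle wells, where it stood at 80.0, 107 and 117 CPM on the KO plates and at 240, 704 and 1096 CPM on the WT plates. The KO plates were all below the WT plates, with reads remaining, and the counts do not show which part of the gene they came from. In arterial wells Notch3 (ENSMUSG00000038146.8, chr17:32120820-32166852, minus strand) stood at 5.14, 16.5 and 45.0 CPM on the KO plates and 85.3, 0.593 and 101 CPM on the WT plates, with reads in 16 of 31 KO and 10 of 30 WT wells. The genotypes overlapped there and the difference of -0.50 did not meet the size rule. An antisense gene model, Gm17276, overlaps its exons.

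Arterial wells made up 1.59%, 2.16% and 4.50% of all wells on the KO plates and 2.90%, 1.60% and 3.49% on the WT plates. The plate means were 2.75% ± 1.54 in KO and 2.66% ± 0.963 in WT (SD, n = 3 plates each), a difference smaller than the spread between plates. As a share of endothelial wells they made up 37.5%, 66.7% and 94.4% on the KO plates and 57.9%, 9.84% and 11.2% on the WT plates. That share overlapped between genotypes and followed the number of other endothelial wells, which was 55 and 103 on WT plates 468 and 469 and 10 or fewer elsewhere. Without wells rich in Myh11, arterial wells were 3, 1 and 4 on the KO plates and 6, 6 and 13 on the WT plates. The sort gates could set each of these shares.

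Genotype differences are the KO mean minus the WT mean of log2(CPM + 1), each taken over 3 plates. A gene was called where it averaged at least 10 CPM, had a read in 25% of the wells of either genotype, differed at least 2-fold and had no overlap between KO and WT plates. Of 9190 measured genes, 520 were higher in KO (5.66%) and 311 were lower (3.38%), and 12.0% had plates that did not overlap whatever their size. The median of all measured genes was 0.15, so small positive differences are common. Counts of a list's called members are read against these shares. None of the 6 selecting genes and none of the 30 measured arterial identity genes was called in either direction. Without wells rich in Myh11, where 9.68% of all genes were higher and 6.80% lower, 5 of 30 arterial identity genes were higher (Cdh13, Dll4, Hey2, Jag1 and Pi16) and 1 was lower (Cxcl12). Vegfc stood at 229.7, 264 and 293 CPM in KO and 419, 155 and 146 CPM in WT wells, Fbln5 at 758, 544 and 749 CPM in KO and 1363, 325 and 379 CPM in WT wells, and Clu at 1850.4, 1598 and 1802 CPM in KO and 1716, 911 and 409 CPM in WT wells. The genotypes overlapped for the first 2, and for Clu, WT plate 044 lay among the KO plates. When 1 plate was left out, 702 to 1229 of 8687 to 9283 measured genes were higher and 392 to 806 lower. Fewer plates have to stay apart there.

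Smooth muscle transcripts set WT plates 468 and 469 apart from the KO plates and from WT plate 044, which had a summed level of 5646 CPM, against 5960 CPM on KO plate 043. Of 13 measured smooth muscle markers Acta2, Des and Tpm2 were called higher in KO and none lower, with a list median of 2.88. Acta2, smooth muscle actin, stood at 1715, 2646 and 2211 CPM in KO and 1655, 42.1 and 17.9 CPM in WT arterial wells, so WT plate 044 was next to KO plate 043 and WT plates 468 and 469 were far below. Tpm2, a tropomyosin, stood at 439, 492 and 599 CPM in KO and 359, 0 and 0.406 CPM in WT (5.99). Of the 520 genes higher in KO, 222 (42.7%) were at least 2-fold higher in smooth muscle wells than in other endothelial wells with Myh11 under 500 CPM, against 17 (5.47%) of the 311 lower genes and 1334 (14.5%) of all 9190 measured. Across the 9190 genes the difference between genotypes correlated with that between smooth muscle and other endothelial wells at 0.41, given as a description since genes are not replicates. Without wells rich in Myh11, 3 wells were left on KO plate 043, 1 on 467 and 4 on 471, and 6, 6 and 13 on the WT plates. KO plate 467, with a single well, did not enter this comparison. There 870 of 8989 genes were higher (9.68%) and 611 lower (6.80%), and 260 of the 520 and 189 of the 311 were called the same way. Pooled, the 8 KO wells under 500 CPM of Myh11, that of plate 467 included, held smooth muscle markers at a summed 2588 CPM. The 25 WT wells pooled held 664 CPM. Pericyte markers stood at 3220 CPM in these KO wells and 1472 CPM in these WT wells. Single KO wells differed widely in smooth muscle markers, at 88.9, 224, 265, 1695, 3123, 4451, 5368 and 5895 CPM. In that comparison 8 of 12 measured smooth muscle markers and 5 of 9 pericyte markers were higher in KO and none was lower.

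**Figure D4:**
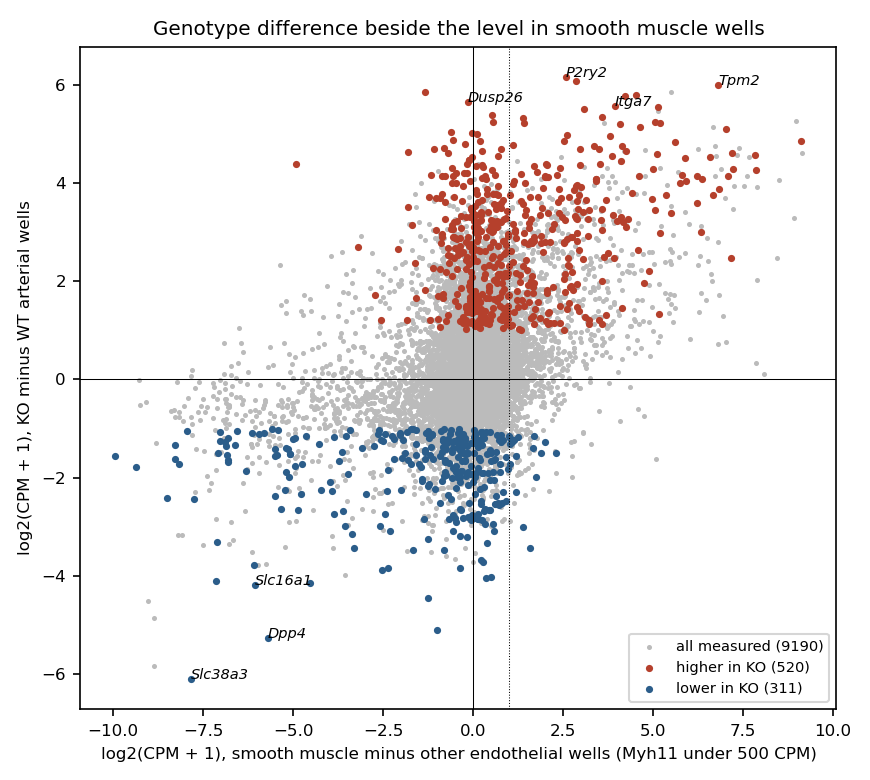
Each point is 1 of 9190 measured genes, with the difference in log2(CPM + 1) between smooth muscle wells and other endothelial wells on the horizontal axis and that between KO and WT arterial wells on the vertical axis. Red points are the 520 genes higher and blue points the 311 genes lower in KO by size, and the dotted line marks a 2-fold difference. Tpm2 and Itga7 lie on the smooth muscle side, Slc38a3 and Slc16a1 on the endothelial side, and Dusp26 near 0 on the horizontal axis.

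Among genes called, the 10 with the largest positive differences were P2ry2, Inpp4b, Tpm2, Dusp2, Gfra2, Map7d2, Dusp26, Itga7, Nfil3 and Osbpl3. P2ry2, a receptor for extracellular nucleotides, stood at 107, 45.1 and 72.3 CPM in KO wells and was at 0 on all 3 WT plates. Its reads came from 10 of 31 KO wells, and pooled over plates the level was at least 261-fold higher in KO, taking 3 counts over all WT wells as the limit of a count of 0. Dusp2 and Dusp26, a pair of phosphatases of signalling proteins, were also at 0 on the WT plates. Dusp2 stood at 15.4, 114 and 100.2 CPM in KO (at least 281-fold, 10 wells) and Dusp26 at 34.6, 55.3 and 61.8 CPM (at least 186-fold, 14 wells). In smooth muscle wells P2ry2, Dusp2 and Dusp26 were at 4.94, 0.189 and 0.774 CPM, below their level in KO arterial wells. These limits cover counting error only, and reads copied from 1 cell are not independent molecules. Inpp4b, a phosphoinositide phosphatase, stood at 891, 170.3 and 195 CPM in KO and 79.7, 0 and 0.203 CPM in WT, and at 302 CPM in smooth muscle wells. Itga7, an integrin of muscle with an antisense partner Mettl7b, stood at 211, 144 and 294 CPM in KO and 58.5, 0 and 0.406 CPM in WT, and at 584 CPM in smooth muscle wells. Gfra2, a co-receptor for GDNF-family ligands, stood at 202, 64.5 and 142 CPM in KO and 0.591, 0 and 6.10 CPM in WT, and at 150.2 CPM in smooth muscle wells. With wells rich in Myh11 left out, Dusp2, Map7d2 and Nfil3 no longer met the rule, with differences of 3.55, 0.84 and 3.96, and the other 7 did, at 7.00 for P2ry2 and 5.98 for Dusp26.

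Cells switch on immediate early genes within minutes of a stimulus and also when tissue is dissociated. Of 20 measured members 7 were higher in KO wells and none was lower (median 1.49), and without wells rich in Myh11 4 of 20 were higher. The 7 were Atf3, Btg2, Egr1, Junb, Jund, Nr4a1 and Zfp36. Egr1, a transcription factor, stood at 537, 1101 and 959 CPM in KO and 511, 1.78 and 298 CPM in WT (3.46). Atf3 stood at 527, 535 and 685 CPM in KO and 205, 17.2 and 217 CPM in WT (2.63), and Junb at 562, 777 and 801 CPM in KO and 454, 53.9 and 282 CPM in WT (1.88). WT plate 044 was close to KO plate 043 for Egr1 and Junb, and WT plate 468 was lowest for all 3. Within plates 043 and 044 alone the difference was 0.04 for Egr1, 0.27 for Junb and -0.035 for Btg2, and within the other 4 plates it was 5.16, 2.67 and 4.20. Smooth muscle wells held Egr1 at 939.6 CPM and Junb at 923 CPM. Outside the wells rich in Myh11, Egr1 and Atf3 met the rule (4.00 and 2.26), and Junb, Jund, Nr4a1 and Btg2 did not. Exons of Junb and Jund overlap antisense gene models. The part of smooth muscle transcripts and of handling in these values was not tested.

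Some capillary and barrier genes were lower in KO arterial wells. Of 16 measured capillary genes 4 were lower (Slc16a1, Slc16a4, Slco1a4 and Slco1c1) and none was higher, with a median of -1.84, and of 20 barrier genes 6 were lower and none was higher, with a median of -1.59. Once wells rich in Myh11 were left out, 6 of 16 capillary and 8 of 20 barrier genes were lower, beside 6.80% of all genes. Some wells near the arterial threshold held much of the capillary list, in both genotypes. KO wells with arterial sums of 175, 176 and 190 CPM had capillary sums of 1296, 12570 and 1071 CPM. On WT plate 468 the wells with arterial sums of 111, 121 and 163 CPM had capillary sums of 19398, 16317 and 13683 CPM, and the other 3 had 4419, 4280 and 388 CPM. On plate 469 the 3 wells with arterial sums under 200 CPM had 12993 to 20464 CPM, and the others 2521 to 17484 CPM. Slc38a3, a glutamine carrier, had the most negative difference of all called genes, at 0.343, 0.971 and 49.6 CPM in KO and 134, 607 and 525 CPM in WT (-6.10). Slc16a1 stood at 0, 56.3 and 14.3 CPM in KO and 82.4, 242 and 258 CPM in WT (-4.18). WT plate 044 was closest to the KO plates for both. At an arterial threshold of 200 CPM, WT plate 468 kept 3 wells, under the minimum of 5, and left the comparison. Slc38a3 was then still called (-5.85) and Slc16a1 was not (-2.93). Whether the plate or the wells near the threshold made that difference was not tested. Mfsd2a stood at 0.343, 0 and 54.4 CPM in KO and 43.1, 565 and 551 CPM in WT, where KO plate 471 and WT plate 044 overlapped, and was not called despite a difference of -5.83. In wells under 500 CPM of Myh11, Slc38a3 was at 0 and 55.8 CPM in KO and 61.7, 604 and 535 CPM in WT (-5.18). Smooth muscle wells held Slc38a3 at 2.48 CPM and Slc16a1 at 8.13 CPM, against 798 and 604 CPM in other endothelial wells with Myh11 under 500 CPM. The part of smooth muscle transcripts in these values was not tested.

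Outside those lists, Dpp4, a cell surface peptidase, stood at 0, 0 and 8.01 CPM in KO and 107, 45.6 and 102 CPM in WT (-5.27), and at 0.0544 CPM in smooth muscle wells and 54.0 CPM in other endothelial wells. Reads were found in 3.23% of KO and 26.7% of WT arterial wells. Fam84b stood at 0.686, 0 and 1.69 CPM in KO and 48.7, 95.4 and 38.0 CPM in WT (-5.11). Dock4, an activator of small GTPases, stood at 0.343, 0 and 15.3 CPM in KO and 27.2, 59.9 and 69.5 CPM in WT (-4.14). WT plate 044 was the highest WT plate for Dpp4, the middle one for Fam84b and the lowest for Dock4. That it lay above every KO plate is a condition of the call. Each of the 3 met the rule without wells rich in Myh11 (-6.49, -4.98 and -5.57). The remaining 5 of the 10 called genes with the most negative differences were the unannotated entry RP23-15K13.2, Gm9946 (-4.11), Tdp2, a DNA repair enzyme (-4.05), Ybey (-4.03) and Ctsc, a lysosomal protease (-3.88). Gm9946 lost its call without wells rich in Myh11. Exons of Dpp4, Fam84b and Ybey overlap antisense gene models.

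In the Notch pathway 1 of 20 measured genes was higher in KO and 1 was lower. Heyl, a Notch target of mural cells, stood at 765, 182 and 222 CPM in KO and 138, 0 and 24.0 CPM in WT (4.38), and at 701 CPM in smooth muscle wells. Mfng, which adds sugars to Notch receptors and alters their choice of ligand, stood at 102, 55.3 and 82.5 CPM in KO and 215, 151 and 212 CPM in WT (-1.28), and at 0.232 CPM in smooth muscle wells. The difference in Mfng was -0.54 without wells rich in Myh11 and no longer met the rule. The 4 arterial Notch genes were not called, with Jag1 at 607, 621 and 557 CPM in KO and 445, 244 and 377 CPM in WT and Notch4 at 146, 138 and 168 CPM in KO and 121, 369 and 369 CPM in WT. Among wells under 500 CPM of Myh11, Jag1 met the rule (1.03), with 3 and 4 KO wells on the plates compared. Hey1 overlapped throughout (-0.08 and -0.52). In that comparison 6 of 20 Notch genes were higher (Dll4, Hey2, Heyl, Jag1, Maml1 and Nrarp) and Rfng was lower, beside the smooth muscle sums of 2588 CPM in KO and 664 CPM in WT wells given above.

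Among the other lists, Tgfb2, a TGF-beta ligand, was higher in KO, at 728, 536 and 420.4 CPM against 260.1, 316 and 234 CPM in WT (1.03, and 1.47 without wells rich in Myh11). Trpv4, higher in arterial than in other endothelial wells above, was lower in KO, at 84.7, 101 and 150.3 CPM against 224, 328 and 202 CPM in WT (-1.17), and did not meet the rule without wells rich in Myh11. Smooth muscle wells held Tgfb2 at 159.7 CPM and Trpv4 at 0.146 CPM. The endothelial factor Erg was lower in KO (-1.19), as were Robo4 (-1.34) and the junction gene Ocln (-1.05), and none of the 3 held without those wells. Nr2f2, a venous factor also found in smooth muscle wells at 401 CPM, was higher (4.17) and lost its call without those wells. Tgfb2 and Nr2f2 overlap other gene models. The remaining lists held at most 3 called members in either direction, but several are short. Of 12 measured vasoactive genes 3 were higher, of 7 leukocyte adhesion genes 2 and of 10 pericyte markers 2, with none lower. Among 16 guidance genes 2 were higher and 1 lower, and of 15 basement membrane genes none was called. Over all 9190 measured genes, 5.66% were higher and 3.38% lower.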

How the data were processed

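Raw read counts per gene and well of a single table were used as deposited. Per the submitters' processing notes, the authors worked with TopHat2 2.1.1, SAMtools 0.1.18, featureCounts of Subread 1.4.6-p5 and the genome build GRCm38 (mm10). The gene annotation and the strand setting of the counting are not given in the sources used here. Wells were assigned to genotype and plate by their column names, and 2 of 2254 wells under 50000 counts were left out. No column was left out.

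Arterial and other endothelial wells were chosen by the thresholds given above. Counts were summed per plate and kind over plates with at least 5 wells, scaled with factors of the trimmed mean of M values (TMM) and written as CPM. The factors matched those of edgeR 4.0.16 in R 4.3.3. Differences used log2(CPM + 1). Scripts ran in Python 3.11.15 with pandas 2.3.3, numpy 2.4.6, scipy 1.17.1 and matplotlib 3.10.9, and the calling rule was tested on simulated data. Shares have exact (Clopper-Pearson) 95% binomial intervals, and a count of 0 was bounded by 3 counts. Smart-seq2 reads carry no molecular identifiers, so intervals and bounds cover counting error only.

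The members, gene lists and rules were chosen with earlier results of these data known. Genes named with values are the selecting genes, among called genes the 12 largest and 12 smallest differences between kinds and the 10 largest and 10 smallest between genotypes, Notch3, up to 6 members per list with the largest differences in each comparison, and the 10 genes most like Gkn3. Other names are list members counted as called, gene models that overlap a named gene, or marker genes listed at 0. Of 30950 table entries, 27956 (90.3%) matched GENCODE M21, which gave positions and overlaps. Promoters are those of RefSeq on GRCm38.p6. Alternatives were other scalings, filters, pseudocounts, thresholds and plate sets, thinning to 50000 counts, and each plate left out. A result that needs a withheld gene is not reported here.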

Additional observations from a re-analysis of the deposited data

Results flagged for a closer look

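Of 76 named genes called between arterial and other endothelial wells, 8 had 1 plate that stood apart. For these, the gap between that plate and the nearest other, divided by the range of the 4 values, exceeded Dixon's 95% critical value. That limit is set so that about 1 in 20 independent groups pass it by chance, and these genes share plates and wells and are not independent. On WT plate 044 the arterial minus other difference (log2) was 9.27 for Bmx, against 7.87, 7.91 and 7.98 on the other plates. Fbln5 was at 6.29 there, against 8.25 to 8.49 elsewhere. Both stood high on every plate, which for Bmx, a selecting gene, was set by the rule. Nid2, a basement membrane gene, was at -5.22 on plate 044, against -1.58 to -0.87 elsewhere. Smad6 was at 5.55 there, against 1.25 to 1.67 elsewhere. Plate 044 held 8 other endothelial wells, 6 of them with Myh11 of 500 CPM or more. On KO plate 043 Jag2 was at 3.47, against 0.72 to 1.16 elsewhere. On WT plate 468 the adhesion gene Icam1 was at -6.79, against -1.12 to -0.03 elsewhere, and Rarres2, the gene of the secreted protein chemerin, was at -5.70, against -1.20 to -0.62. On WT plate 469 Lama3, a laminin gene, was at 1.91, against 6.16 to 6.65 elsewhere. Each kept its sign on all 4 plates, which the calling rule requires.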

How the results depend on the processing

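Counts of genes by size moved more than single differences. Between arterial and other endothelial wells, 356 genes were higher and 440 lower of 7837 measured. Leaving out wells rich in Myh11 gave 571 and 1077 of 7294 on the 2 plates with 5 wells of each kind. Leaving out wells high in markers of other classes gave 573 and 1360 of 7360. An arterial threshold of 200 CPM, at which plate 468 kept too few arterial wells to enter, gave 713 and 713 of 7865. Plates 043 and 044 alone gave 1455 and 1031 of 8116. The setting of plates 467, 468, 469 and 471 gave 549 and 1124 of 7314, and only WT plates 468 and 469 held at least 5 wells of each kind there. The lower genes numbered 939 of 24879 measured with no minimum level and 228 of 8019 with plates of at least 3 wells. Between KO and WT, 520 genes were higher and 311 lower of 9190 measured. Plates 043 and 044 alone gave 1963 and 1936 of 8649, and the other 4 plates gave 1594 and 981 of 9127. The higher genes numbered 822 of 21608 with no minimum level and 1032 of 9127 without wells high in other markers. The lower genes numbered 642 of 9132 at 200 CPM, again without plate 468. With no minimum level, the larger counts came with many more measured genes. Elsewhere, fewer plates or wells in a comparison make the sign or overlap condition easier to meet, and no other cause was tested. Of the comparisons chosen after seeing the data, that without wells rich in Myh11 gave 870 and 611 of 8989. The KO plates against WT plate 044 alone gave 1594 and 1305 of 9303. At 5 wells per plate the first of these could not be run. The mean arterial share of all wells on the KO plates was 0.707 percent without wells rich in Myh11. Single differences that changed sign were Gja1 (0.78), Smad6 (-0.14) and Col1a2 (0.081) without wells high in other markers, and Btg2 (-0.035) on plates 043 and 044.

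With 1 plate left out, 7364 to 7948 genes were measured between arterial and other endothelial wells. Plates 467 and 471 did not enter that comparison, so leaving out either gave 356 and 440 again. Without 1 of the plates that did enter, 430 to 744 genes were higher and 551 to 759 lower in arterial wells. The higher genes numbered 552, 744 and 646 without plates 043, 468 and 469, and the lower ones 694 and 759 without plates 044 and 469. Between genotypes 702 to 1229 of 8687 to 9283 measured genes were higher and 392 to 806 lower. The higher genes numbered 901, 1229, 860 and 1096 without plates 043, 044, 467 and 469. The lower genes numbered 478, 806, 623, 516 and 622 without plates 043, 044, 468, 469 and 471. The mean arterial share of all wells ranged over 1.87% to 3.33% for KO and 2.25% to 3.19% for WT, and that of endothelial wells over 52.1% to 80.6% and 10.5% to 34.6%. No paired analysis was possible because the labels give the plates no shared replicate number or animal. With 6 to 17 arterial wells per plate, a gene found in a few wells can rest on 1 of them.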
